A study of Mus musculus with 6 samples.

Results

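The genes that mark the zones of the liver lobule were followed in whole liver of mice that lack ARSB (arylsulfatase B, a lysosomal sulfatase that acts on the 4-sulfate of chondroitin 4-sulfate and dermatan sulfate). The members are 36 genes of the Wnt pathway and of liver zonation, taken by symbol: pericentral genes and Wnt targets, Wnt ligands and modulators, the core of the pathway, and periportal genes, with P450 genes left out. Of these, 32 were measured by a probe set with 1 gene symbol, of 19938 genes so measured on the array. Gls2, Sds and Sdsl had no such probe set here, and the 2 probe sets of Ass1 carry a second symbol, so these 4 periportal genes have no value. Where a gene had several probe sets, which among the members was true of Glul alone, the brightest by its mean over all arrays was used.

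Liver was taken from 3 homozygous ARSB-null and 3 control C57BL/6J male mice of 12 weeks, untreated, with 1 array per mouse. Both groups carried the same background strain, and the null mice came from a colony that was bred from purchased heterozygotes. It is not stated that the controls were littermates, so genotype and colony cannot be told apart here. Mice are named below by the number on their labels, 4, 5 or 6 in each group. All values are the authors' normalized log2 signals, on which a step of 1 is a doubling, and a difference is always ARSB-null minus control. Levels of different probe sets are not comparable with each other.

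The liver lobule is divided into zones along the path of the blood. Endothelial cells of the central vein secrete Wnt ligands and R-spondin 3, which stabilize beta-catenin in the nearest hepatocytes, where it acts with TCF/LEF factors on glutamine synthetase and other pericentral genes. Hepatocytes around the portal tract, where this signal is low, carry most of the urea cycle, of amino acid breakdown and of gluconeogenesis. Several Wnt targets, among them Axin2, Notum, Rnf43 and Znrf3, dampen the pathway that induces them. Whole tissue holds no positions, so that a gene is pericentral or periportal is background here and not a measurement, and fewer cells of a type cannot be told apart from less RNA per cell.

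Arsb itself had log2 signals of 7.63, 7.46 and 7.64 in the null livers and 10.21, 10.23 and 10.21 in the controls (difference -2.64, adjusted p = 0.000639 from limma). The hepatocyte markers were bright, with Alb, Apoa1, Ttr, Hnf4a and Cebpa at a mean between 12.98 and 13.07 in the null livers and between 12.97 and 13.09 in the controls. Over all probe sets, 2 were higher and 5 lower in the null livers at an adjusted p under 0.05, which is 0.00562% and 0.0141% of 35556. The arrays numbered 4 stood apart from the rest in both groups, and the group medians, and the members that moved most, are therefore also given without them.

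Most pericentral members had more signal in ARSB-null liver, most of the measured periportal ones had less, and none of either kind passed the test over all probe sets. Of 15 pericentral members, 13 had a higher and 2 a lower mean, with a median difference of 0.19, against -0.02 over all 19938 genes. Of 8 measured periportal members, 2 had a higher and 6 a lower mean, with a median difference of -0.09. Without both arrays numbered 4 these medians were 0.22 and -0.09. At an unadjusted p under 0.05 there were 4 pericentral members higher and none lower, and 1 periportal member lower and none higher, where 2.0% of all genes were higher and 3.80% lower. The 3 null livers lay above all 3 controls in 5 of 15 pericentral members, where this held for 4.73% of all genes. They lay below all controls in 2 of 8 periportal members, where this held for 8.32% of all genes. The lowest adjusted p among the 32 members was 0.199, that of Lhpp.

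**Figure D1:**
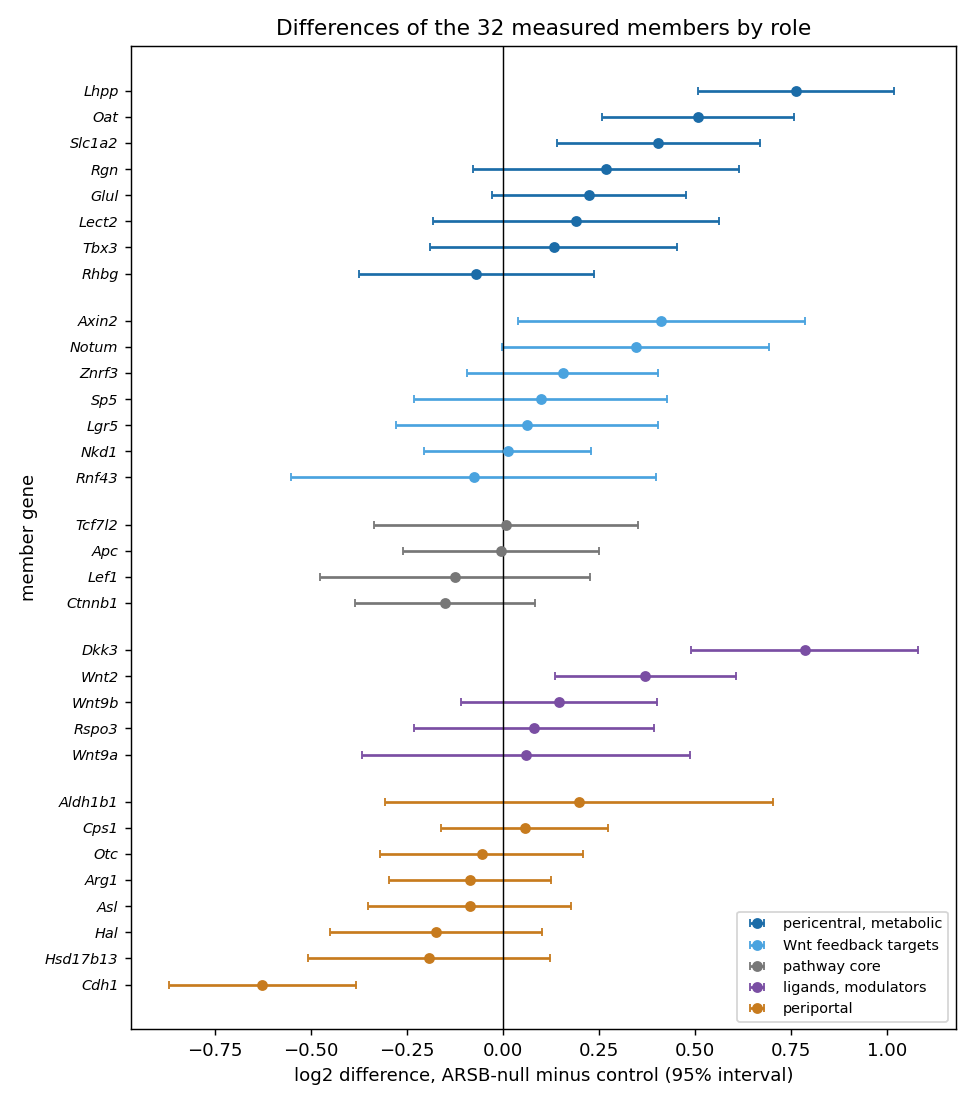
Log2 difference, ARSB-null minus control (horizontal axis), of the 32 measured members, by role and ordered by size within it. Points are differences of means (3 mice per group) and bars are 95% intervals from limma. The intervals of Lhpp, Oat, Slc1a2, Axin2, Dkk3 and Wnt2 lie above 0 and that of Cdh1 lies below it, while no member had an adjusted p under 0.05.

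Among the pericentral metabolic genes, the largest difference was that of Lhpp, which encodes a phosphatase that removes phosphate from histidine and from pyrophosphate. Its log2 signal was 10.25, 10.30 and 10.51 in the null livers 4, 5 and 6, and 9.60, 9.62 and 9.56 in the controls. The lowest null liver was above the highest control, and the controls lay within a narrow band. Null livers averaged 10.35 ± 0.14 (SD, n = 3) against 9.59 ± 0.03 (SD, n = 3) in controls, a difference of 0.76 with a standard error of 0.11, which is a 1.70-fold higher signal (95% interval of the log2 difference 0.51 to 1.02). Its adjusted p was 0.199 from limma over all probe sets. With the test limited to the 21789 probe sets of 1 symbol, the adjusted p was 0.0260, and Lhpp was then among the 0.124% of probe sets called higher.

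Oat and Slc1a2 had the next largest differences in this group. Oat, the ornithine aminotransferase that passes the amino group of ornithine on to form glutamate, had 12.43, 12.47 and 12.58 in the null livers and 12.06, 12.04 and 11.86 in the controls. All null livers were above all controls, by a mean of 0.51 (standard error 0.11, 1.42-fold; adjusted p = 0.383). Slc1a2, the glutamate transporter that pericentral hepatocytes carry on their surface, had 10.32, 10.25 and 10.52 in the null livers and 10.05, 9.94 and 9.88 in the controls. Again no null liver overlapped a control (difference 0.40, standard error 0.11, 1.32-fold; adjusted p = 0.621).

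Glul, the glutamine synthetase that joins ammonia to glutamate in the hepatocytes next to the central vein, differed less. Its brighter probe set had 12.76, 12.81 and 12.96 in the null livers and 12.53, 12.72 and 12.61 in the controls, with a difference of 0.22 (standard error 0.11; adjusted p = 0.869). The groups did not overlap, but the lowest null liver lay close to the highest control. Its other probe set gave almost the same difference, 0.21 (standard error 0.10; adjusted p = 0.860). Both probe sets lie near the top of the signal range of the array, at the 98.9th percentile for the brighter one. The 95% interval of -0.03 to 0.48 holds 0 as well as a difference near that of Oat.

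In the other 4 metabolic and hepatocyte genes of the group the null and control livers overlapped. Rgn, the regucalcin gene, had a difference of 0.27 (95% interval -0.08 to 0.61). Lect2, a secreted protein of hepatocytes, had 0.19, with the control numbered 4 as its lowest liver at 10.25, and -0.0041 without both arrays numbered 4. Tbx3, a transcription factor downstream of Wnt, had 0.13. Rhbg, the ammonium transporter that supplies glutamine synthetase, had -0.07 (95% interval -0.38 to 0.24).

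**Figure D2:**
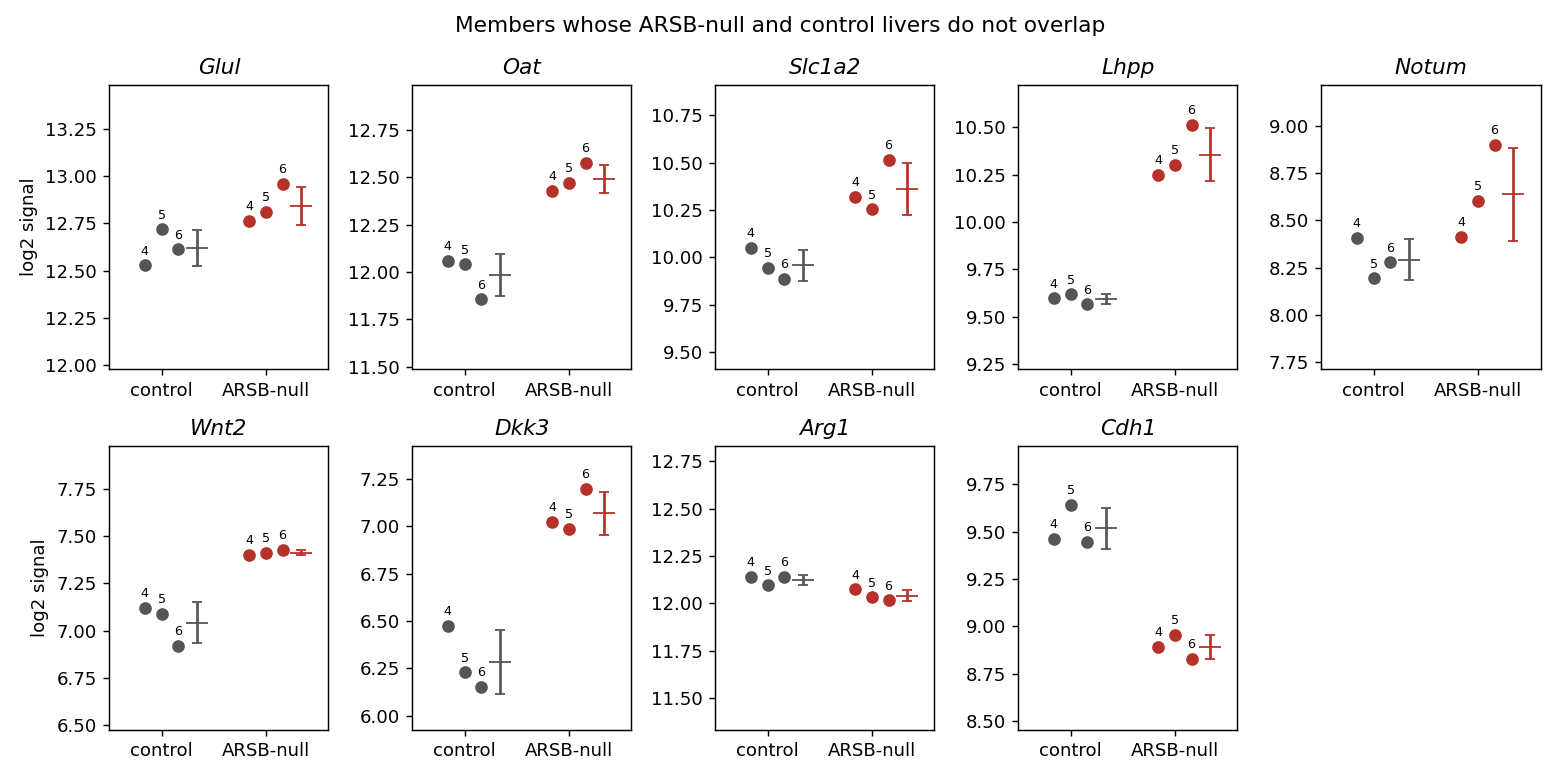
Log2 signal (vertical axis, each panel spanning the same 1.5 units) of the 9 members whose groups did not overlap, in control (grey) and ARSB-null (red) livers. Points are single mice with their label numbers, and the bars beside them are mean and SD (n = 3). Lhpp, Dkk3 and Cdh1 show the widest gaps, and the null liver 4 of Notum touches the control numbered 4.

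The Wnt targets that feed back on the pathway differed unevenly. Axin2, a scaffold of the complex that destroys beta-catenin and a common readout of the pathway, had 7.70, 8.14 and 8.19 in the null livers and 7.62, 7.70 and 7.45 in the controls. The null liver numbered 4 lay within the controls and the other null livers above them (difference 0.41, standard error 0.16, 95% interval 0.04 to 0.78; adjusted p = 0.80). Notum, the secreted enzyme that strips the lipid from Wnt proteins, had 8.41, 8.60 and 8.90 against 8.41, 8.19 and 8.28. Its null liver 4 was above the control 4 only in the third decimal place (difference 0.34, standard error 0.15; adjusted p = 0.840). Znrf3, a ligase that removes Wnt receptors from the cell surface, had 8.52, 8.72 and 8.75 against 8.46, 8.52 and 8.54, with the null liver 4 within the controls and the other null livers above (difference 0.15, standard error 0.10; adjusted p = 0.964).

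The remaining feedback targets had smaller differences, most of which turned with single arrays. Lgr5, the R-spondin receptor of pericentral hepatocytes, had 8.21, 8.65 and 8.63 in the null livers and 8.42, 8.52 and 8.35 in the controls. As in Axin2 and Znrf3, the null livers 5 and 6 lay above all controls, while the null liver 4 was the lowest of all livers. Its difference of 0.06 (95% interval -0.28 to 0.40) was 0.21 without the null liver 4, 0.20 without both arrays numbered 4 and -0.01 without the null liver 5. Nkd1, which binds Dishevelled, had 0.01 (-0.21 to 0.23), the narrowest interval among these genes. Rnf43, the ligase related to Znrf3, had -0.08, and its interval of -0.55 to 0.40 was wide because the control numbered 4 stood at 9.56 and the other controls at 9.01 and 8.88. Without both arrays numbered 4 it was 0.18. Sp5, a transcription factor induced by Wnt, was dim in all livers, at 5.40 to 5.85, and its difference was 0.10, or -0.05 without both arrays numbered 4.

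The site that TCF/LEF factors bind was searched in the promoters of the members on either strand, in the spelling CTTTGAA, in the spelling CTTTGAT, in the spelling CTTTGTA and in the spelling CTTTGTT. RefSeq windows (GRCm38.p6) of 250 bases before and 50 after an annotated start held such a site in 16.9% of 32851 windows. For the members, the windows of a single chromosome were left out, which the share over all windows keeps. Of the members, 19 genes had a window among those searched, and 6 of their 25 windows held a match. These 6 windows belong to 6 genes: 3 of 8 pericentral, 1 of 5 periportal, and Lef1 and Tcf7l2 of the core. Lef1 and Tcf7l2 also had windows without a match. Slc1a2 is shown as a pericentral gene without overlap between the groups, Sp5 as a Wnt target that was dim in both, and Hal as a periportal gene with the same letters. The matches are in capitals.

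Slc1a2, chr2:102706188-102706487, plus strand: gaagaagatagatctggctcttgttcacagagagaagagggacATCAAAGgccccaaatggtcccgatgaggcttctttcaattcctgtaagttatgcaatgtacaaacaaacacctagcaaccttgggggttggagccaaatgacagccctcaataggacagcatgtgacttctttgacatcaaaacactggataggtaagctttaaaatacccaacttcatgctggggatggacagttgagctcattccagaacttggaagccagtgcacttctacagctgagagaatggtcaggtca
Sp5, chr2:70474673-70474972, plus strand: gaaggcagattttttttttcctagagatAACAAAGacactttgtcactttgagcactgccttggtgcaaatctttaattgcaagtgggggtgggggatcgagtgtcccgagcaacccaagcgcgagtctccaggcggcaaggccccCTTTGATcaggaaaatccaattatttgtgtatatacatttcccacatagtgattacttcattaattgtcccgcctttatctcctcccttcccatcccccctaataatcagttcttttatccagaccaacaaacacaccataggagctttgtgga
Hal, chr10:93488518-93488817, plus strand: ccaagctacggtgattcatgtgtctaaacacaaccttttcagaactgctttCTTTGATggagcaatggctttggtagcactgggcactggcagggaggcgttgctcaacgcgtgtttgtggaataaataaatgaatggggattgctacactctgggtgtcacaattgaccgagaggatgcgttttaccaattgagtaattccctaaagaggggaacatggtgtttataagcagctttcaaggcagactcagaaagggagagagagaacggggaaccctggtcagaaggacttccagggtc

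Counted from the annotated start, with negative positions before it, the match of Slc1a2 begins at -207 and that of Hal at -199. Sp5 holds a match at -222 and another at -104. Of the pericentral genes searched, Slc1a2, Lect2 and Sp5 held a match and Oat, Glul, Axin2, Rnf43 and Nkd1 held none. Lhpp, Notum and Lgr5 had no window among those searched. Sp5 was dim in all livers, so these few genes cannot relate the letters to the differences in signal. A match of letters is not a measured site, and no window tells of the enhancers that lie further away.

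The core of the pathway showed no difference past the test at the level of transcripts. Ctnnb1, which encodes beta-catenin, had 10.80, 10.99 and 10.87 in the null livers and 11.10, 11.03 and 10.98 in the controls, with a difference of -0.15 (95% interval -0.39 to 0.08; adjusted p = 0.958). Lef1, a partner of beta-catenin on DNA that lymphocytes also express, had 6.31, 6.09 and 6.37 against 6.63, 6.18 and 6.34 (difference -0.12, adjusted p = 0.989). Of the lymphocyte markers Cd3e, Cd3g, Cd8a, Cd79a and Ms4a1, 5 of 5 measured had a lower mean in the null livers, where their mean lay between 5.89 and 6.03 against 6.04 to 6.37 in the controls, and their part in the value of Lef1 was not tested. Tcf7l2, the main TCF factor of hepatocytes, had 8.86, 9.01 and 9.37 against 9.09, 9.03 and 9.09, spread more widely in the null group than in the controls (difference 0.01, 95% interval -0.33 to 0.35; -0.14 without the null liver 6 and 0.13 without both arrays numbered 4). Apc, the scaffold whose loss activates the pathway, had a difference of -0.00470 (95% interval -0.26 to 0.25). Stability and location of beta-catenin protein, on which the pathway turns, were not measured here.

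Each of the 5 ligands and modulators was on average brighter in the null livers (median difference 0.14, or 0.24 without both arrays numbered 4), but in Wnt9a and Rspo3 this direction rested on single arrays. Dkk3, a secreted protein of the Dickkopf family whose action on Wnt signalling varies with the cell, had the largest difference of all 32 members. Its log2 signal was 7.02, 6.99 and 7.20 in the null livers and 6.47, 6.23 and 6.15 in the controls. Null livers averaged 7.07 ± 0.11 (SD, n = 3) against 6.28 ± 0.17 (SD, n = 3) in controls, a difference of 0.78 (standard error 0.12, 95% interval 0.49 to 1.08, 1.72-fold), with no overlap between the groups. The adjusted p was 0.232 over all probe sets and 0.0377 over those with 1 gene symbol, both from limma. In the second test Lhpp and Dkk3 were the 2 members called higher and none was called lower, where 0.151% of probe sets were called lower.

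Wnt2, a ligand that liver endothelial cells make, had 7.40, 7.41 and 7.43 in the null livers and 7.12, 7.09 and 6.92 in the controls. The null livers lay close together and above all controls (difference 0.37, standard error 0.10, 1.29-fold; adjusted p = 0.599). Wnt9b, the ligand of central vein endothelium, had 7.58, 7.38 and 7.59 against 7.46, 7.29 and 7.37, with overlap (difference 0.14, standard error 0.11; adjusted p = 0.972). Rspo3, the R-spondin that amplifies Wnt signals around the central vein, had a difference of 0.08, and Wnt9a one of 0.06, both with 95% intervals that reach to both sides of 0. Rspo3 had -0.01 without the null liver 5 and 0.24 without both arrays numbered 4. Wnt9a had -0.05 without the control 5, -0.03 without the control 6 and 0.26 without the control 4.

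Markers of the cells that could carry these transcripts are given beside them. The mean over the endothelial markers Pecam1, Stab2, Lyve1, Clec4g, Kdr and Cdh5 was 9.43 to 9.56 in the null livers and 9.48 to 9.54 in the controls, and 4 of 6 had a higher mean in the null livers. For the stellate cell markers Lrat, Des, Reln, Pdgfrb, Dcn and Hand2 it was 8.94 to 9.12 in the null livers and 8.90 to 8.92 in the controls, with a higher mean in 6 of 6, none of them past the test (differences 0.04 to 0.24). For the Kupffer cell markers Clec4f, Vsig4, Adgre1, Cd5l, Marco and Timd4 it was 9.05 to 9.21 against 9.02 to 9.47, with a lower mean in 5 of 6. Lyve1 alone of the endothelial markers had no overlap, and it was lower in the null livers. It had 8.30, 8.04 and 8.27 there and 8.61, 8.39 and 8.55 in the controls (difference -0.31, adjusted p = 0.799 from limma). The part of these cell types in the values of Dkk3 and Wnt2 was not tested.

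Among the periportal genes, Cdh1 had the largest difference. It encodes E-cadherin, the adhesion molecule of epithelial cells, which is found on periportal hepatocytes and on bile duct cells. Its log2 signal was 8.89, 8.96 and 8.83 in the null livers and 9.46, 9.64 and 9.45 in the controls, so that every null liver lay below every control. Null livers averaged 8.89 ± 0.06 (SD, n = 3) against 9.52 ± 0.11 (SD, n = 3) in controls, a difference of -0.63 (standard error 0.10, 95% interval -0.87 to -0.38), which is a 1.54-fold lower signal. Its adjusted p was 0.239 from limma. With the replicate number as a block and only probe sets with 1 gene symbol tested, a setting chosen after the data were seen, Cdh1 (adjusted p = 0.0332), Lhpp (0.0245) and Dkk3 (0.0341) were past the threshold, where 0.197% of probe sets were called higher and 0.289% lower.

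Of the bile duct markers Krt19, Krt7, Epcam and Sox9, 2 of 4 measured had a lower mean in the null livers, and their mean was 6.81 to 6.93 there and 6.90 to 7.04 in the controls. Sox9 alone of these had no overlap, at 8.13, 8.20 and 8.05 in the null livers and 8.56, 8.48 and 8.40 in the controls (difference -0.35, adjusted p = 0.626), and the keratins Krt19 (0.02) and Krt7 (-0.12) overlapped. The part of bile duct cells in the value of Cdh1 was not tested.

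The periportal enzymes differed far less than Cdh1. Cps1, Otc, Asl and Arg1 form the urea cycle together with Ass1. Arg1, which releases urea from arginine, had 12.07, 12.03 and 12.02 in the null livers and 12.14, 12.09 and 12.14 in the controls, without overlap but with a difference of only -0.09 (95% interval -0.30 to 0.12; adjusted p = 0.988). Cps1, which fixes ammonia at the entry to the cycle, had 0.06 (95% interval -0.16 to 0.27). Otc had -0.06 (-0.32 to 0.21) and Asl -0.09 (-0.35 to 0.18). All 4 lie in the top few percent of the array's signals, from the 97.3rd percentile up.

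Hal, the histidine ammonia-lyase, had 12.38, 12.35 and 12.56 against 12.76, 12.50 and 12.55 (difference -0.18, standard error 0.12; adjusted p = 0.960), with the null liver 6 among the controls. Hsd17b13, an enzyme of lipid droplets, had 10.78, 10.99 and 10.90 against 10.85, 11.15 and 11.24 (difference -0.19, standard error 0.13; adjusted p = 0.966), also with overlap. Aldh1b1, a mitochondrial aldehyde dehydrogenase, had 0.20, and its interval of -0.31 to 0.70 was among the widest, since the control 4 stood at 9.12 and the other controls at 8.44 and 8.36.

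Taken per liver, the mean over the 15 pericentral members was 9.40, 9.50 and 9.60 in the null livers 4, 5 and 6 and 9.28, 9.32 and 9.22 in the controls. The mean over the 8 periportal members was 11.35, 11.33 and 11.39 in the null livers and 11.51, 11.47 and 11.46 in the controls. The pericentral mean minus the periportal mean was -1.95, -1.83 and -1.79 in the null livers and -2.22, -2.15 and -2.24 in the controls. The null livers were on the pericentral side of the controls in each of these measures, in the periportal mean only with Cdh1 included. In the pericentral minus the periportal mean the gap between the groups was 0.35 (SD 0.08 in the null livers and 0.05 in the controls, n = 3 each). The separation of the groups in the periportal mean rests on Cdh1, with a difference of -0.63. The other measured periportal members had -0.19 (Hsd17b13) to 0.20 (Aldh1b1), and all but Arg1 overlapped between the groups. The null liver 6 was the highest of all livers in Asl (11.95) and Cps1 (13.89). The value of the periportal mean without Cdh1 is not given. No test is given for these means, since the members were chosen with results of these arrays known. Without both arrays numbered 4 the gap was 0.39, and without any single array it was 0.32 to 0.39.

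**Figure D3:**
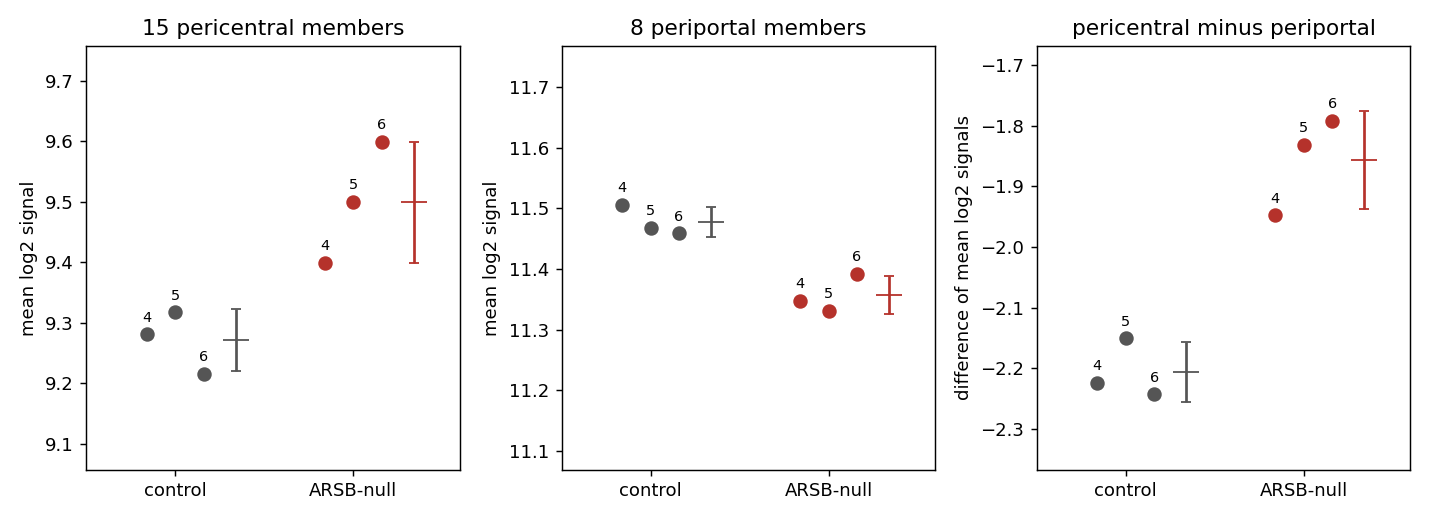
Mean log2 signal over the 15 pericentral members (left) and the 8 periportal members (middle), and the first minus the second (right), in control (grey) and ARSB-null (red) livers; every panel spans 0.7 units. Points are single mice with their label numbers, and bars are mean and SD (n = 3). The null livers lie at -1.95 to -1.79 and the controls at -2.24 to -2.15 in the right panel. In the middle panel the groups are apart only with Cdh1 included.

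The null liver numbered 6 was the highest of all 6 livers in 10 of the 15 pericentral members, and the control numbered 6 the lowest in 6 of them. The null liver numbered 4 was the highest in 2 and the lowest in 2. The pericentral signal thus varied among the null livers as well, and it was least in the liver 4. In Lhpp, Oat, Slc1a2, Dkk3, Wnt2 and Cdh1, in contrast, all 3 null livers were apart from all controls. This also held for Glul, Notum and Arg1, but with narrower gaps between the groups.

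**Figure D4:**
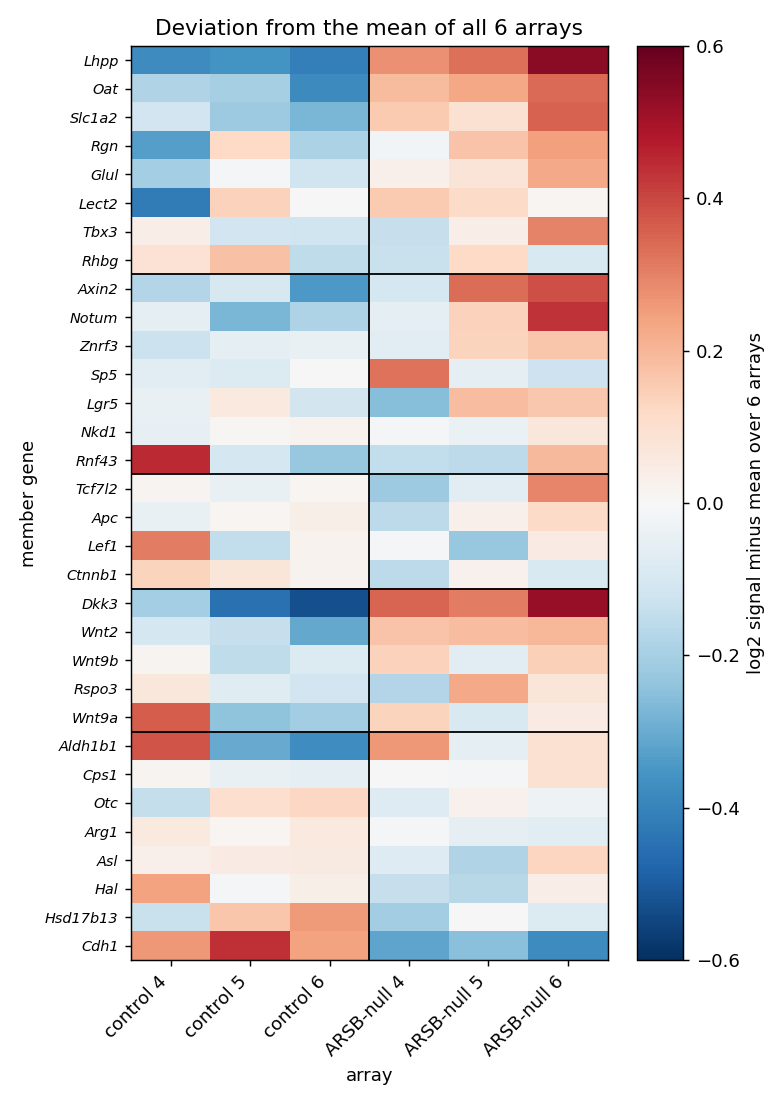
Log2 signal of each measured member (rows, grouped by role as pericentral metabolic, Wnt feedback, pathway core, ligands and modulators, and periportal) minus its own mean over all 6 arrays, per array (columns). Red is above and blue below that mean. Lhpp, Oat, Slc1a2, Dkk3 and Wnt2 are red in all 3 null livers and blue in all 3 controls, and Cdh1 is the reverse. Glul goes with the former and Arg1 with Cdh1, both less strongly.

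Oat and Lhpp are neighbours in the genome, with 1 protein-coding gene, Nkx1-2, between them in RefSeq's gene order for GRCm38.p6. Nkx1-2 was dim, at 6.32 to 6.82, and had a difference of -0.03. Beyond Lhpp the next genes, Fam53b (-0.01), Eef1akmt2 (-0.09), Abraxas2 (-0.05), Zranb1 (0.06) and Ctbp2 (0.13), all overlapped between the groups. On the other side of Oat, Chst15, a sulfotransferase that adds a second sulfate to chondroitin 4-sulfate, had 9.17, 9.13 and 9.23 in the null livers and 8.84, 8.85 and 8.87 in the controls, without overlap (difference 0.32, standard error 0.09; adjusted p = 0.621). Cpxm2, the next gene, had 0.20 with overlap. These neighbours were looked at after the values of Oat and Lhpp were known. With Oat and Lhpp, 3 members lie on this chromosome. Oat and Lhpp both count among the 5 pericentral members without overlap, and the part of their shared location in this was not tested.

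**Figure D5:**
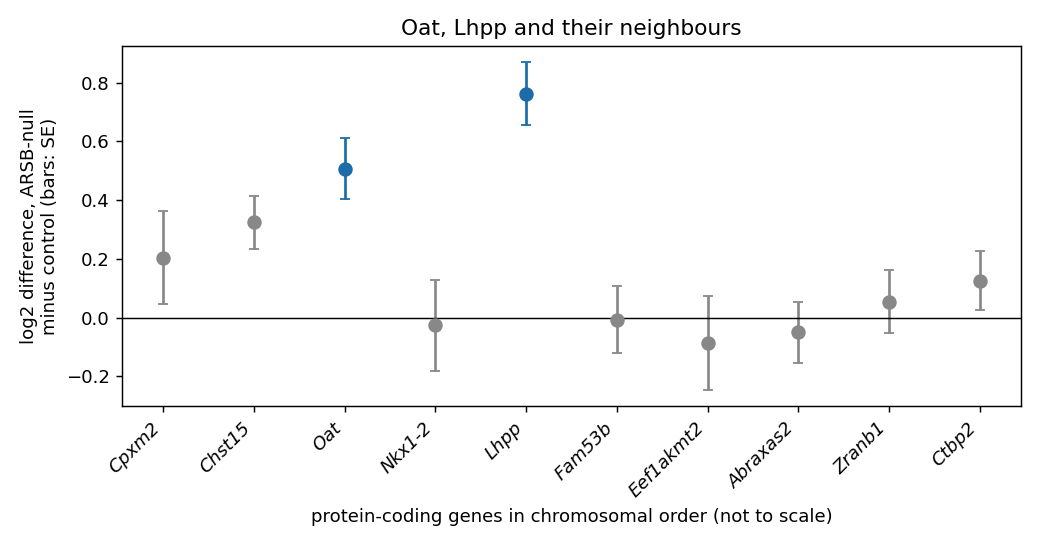
Log2 difference, ARSB-null minus control (vertical axis), of Oat and Lhpp (blue) and of the protein-coding genes around them (grey), in chromosomal order and not to scale. Points are differences of means (3 mice per group) and bars are standard errors. Chst15 (0.32), Oat (0.51) and Lhpp (0.76) lie above 0 without overlap between the groups, with Nkx1-2 (-0.03) between Oat and Lhpp.

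Differences in the rest of the pathway went both ways. Of 74 other Wnt pathway genes, 73 were measured, 39 with a higher and 34 with a lower mean and a median difference of 0.01, and none passed the test in either direction. The null livers lay above all controls in 7 of the 73 and below all controls in 4, where this held for 4.73% (above) and 8.32% (below) of all genes. The other ligands and the proteins that help to secrete them had a difference of at most 0.34, that of Wls, the carrier that takes Wnt proteins to the cell surface (7.79, 7.77 and 7.66 against 7.14, 7.59 and 7.45). Porcn, which attaches the lipid to Wnt proteins, had 0.19, and Wnt3a had 0.28. Among the receptors, Lrp5, the co-receptor for Wnt, had 0.25 (10.29, 10.33 and 10.40 against 10.00, 10.17 and 10.11), Fzd7 had -0.18 and Fzd4 -0.24.

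Of the other secreted and intracellular inhibitors, Frzb had 0.32 (adjusted p = 0.670 from limma) and Sfrp1 -0.25, both without overlap, and Ctnnbip1 -0.22 with overlap. Of the proteins that carry the signal inside the cell, Tcf7l1, a TCF factor that mostly represses, had -0.28 (means 8.10 against 8.38, without overlap; adjusted p = 0.788), Bcl9l had 0.18 and Dvl3 -0.15. The kinases Gsk3a and Gsk3b had 0.06 and -0.05.

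Other zonated genes outside the members gave a mixed picture. Of 7 measured further pericentral genes, 6 had a higher and 1 a lower mean, with a median difference of 0.26. Gulo, the last enzyme of vitamin C synthesis in mice, had 12.72, 12.81 and 12.91 in the null livers and 12.50, 12.65 and 12.51 in the controls (difference 0.26, adjusted p = 0.818). Slc16a10, an amino acid transporter, had 0.26 and Avpr1a, a vasopressin receptor, 0.45 with overlap, and Slc13a3, a carrier of dicarboxylates, was the exception with -0.28. Of 11 further periportal genes, however, 7 had a higher and 4 a lower mean, with a median difference of 0.04. The null livers lay above all controls in 4 of these 11 and below all controls in 2. Among the 7 further pericentral genes they lay above all controls in 3 and below in 0. Over all genes this held for 4.73% (above) and 8.32% (below). Lying above all controls was thus not particular to pericentral genes. Etnppl had -0.36 and Hsd17b6 0.36, close to each other in size and opposite in sign, and Apoa4, an apolipoprotein, had 0.25. The mean of these further pericentral genes minus that of the further periportal ones was -1.98, -1.71 and -1.75 in the null livers. In the controls it was -1.81, -1.86 and -2.15, so here the null liver 4 and the controls overlapped. The gap between the groups was 0.12 here (SD 0.14 in the null livers and 0.18 in the controls, n = 3 each).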

How the data were processed

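Per the labels and the study's methods, liver RNA was labelled and hybridized to mouse gene arrays, and the authors deposited quantile-normalized log2 signals, 1 per probe set. RMA and Partek are named, without versions, in the submitters' processing notes. The genome build is not given in the sources used here. Quantile normalization removes a shift common to most genes, at least in part. The medians of the deposited arrays still differed, from 6.50 (control 5) to 6.60 (control 4). They averaged 6.57 in the null livers and 6.54 in the controls.

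The study's methods name a second-generation mouse gene array, but the row identifiers are those that GEO annotates for the first-generation array. All genes were named through that annotation, and the names rest on it (21789 with 1 symbol, 1621 with several, 12146 not listed). The low Arsb signal in the null livers checks 1 of these names against the labels. All 35556 were compared with limma 3.58.1 in R 4.3.3 (lmFit, eBayes, Benjamini-Hochberg over all probe sets, two-sided, threshold 0.05); the fit was tested on simulated data. The members and lists were chosen with earlier results of these data known. Where groups do not overlap, the exact two-sided permutation p is 0.1, the smallest that 3 mice against 3 allow. The number of arrays limits precision, and there are no detection calls.

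Values in every array are given for members whose groups do not overlap and for the 3 with the smallest p in each role; of other lists, up to 3 genes with the smallest p are given; other genes were named after their values were seen. Same-numbered mice deviated together across probe sets (r = 0.396, 0.159 and 0.193 for numbers 4, 5 and 6, above 0.1), so the number was also fitted as a block. Null 6 correlated slightly better with control 5 (r = 0.220), and null 5 with control 6 had r = 0.0801. Deviations were taken from each group's mean and sum to 0 within it. These values therefore depend on each other and cannot show that mice were paired. What a shared number stands for is not stated. Alternatives were an analysis of variance per probe set, as the methods name, other scalings, filters and priors, array weights, and leaving out arrays.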

Additional observations from a re-analysis of the deposited data

How the results depend on the processing

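Directions of the member groups held while counts moved, but these are unlike measures. The analysis of variance, the replicate block, the robust prior and the filters of probe sets leave each member's difference as it was. They change only its p, so no direction could turn in them, here or in the count of member values below. Over 17 alternatives the median log2 difference was 0.16 to 0.27 for pericentral members, -0.12 to -0.08 for periportal and 0.10 to 0.26 for ligands and modulators; that of the core was -0.14 to 0.01 and above 0 only without both arrays numbered 4. Leaving out each array in turn gave 0.17 to 0.27, -0.12 to -0.08, 0.10 to 0.26 and -0.14 to -0.01, and 0 members called in either direction. Members called higher were 2 with only probe sets of 1 gene symbol, and 2 higher and 1 lower with the replicate block as well; the replicate block alone changed no member's call. Of 544 member values, 512 kept direction and side of the threshold, 5 gained a call (Lhpp and Dkk3 in both settings with 1 symbol, Cdh1 with the block), none lost one and 27 uncalled ones changed sign, in Apc, Lect2, Lgr5, Nkd1, Rhbg, Rnf43, Rspo3, Sp5, Tcf7l2 and Wnt9a. With array medians centred, Glul overlapped between the groups while Hal and Ctnnb1 lay wholly below the controls (4 of 15 pericentral members apart, 3 of 8 periportal, 1 of 4 core). After repeated quantile normalization, Arg1 overlapped while Axin2 and Znrf3 lay wholly above the controls (7 pericentral, 1 periportal). Over all probe sets, against 2 higher and 5 lower, there were 1 and 1 by the analysis of variance, 27 and 33 with 1 symbol, and 43 and 63 with the block as well. With medians centred there were 1 higher and 6 lower, without the dimmest probe sets (quantile 0.25) 5 and 8, and with the replicate block alone 1 and 3. Array weights gave 14 and 14. Without both arrays numbered 4 there were 1 and 0, and without each array in turn 1 higher and 3 to 6 lower. The causes were not tested, apart from fewer probe sets or arrays where a setting has them.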
